A study of Mus musculus with 6 samples.

Results

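A set of 10 temperature-responsive genes is described here in RNA of old mouse atria, out of the 54838 genes in the deposited count table. They are 8 heat shock genes (Hspa1a, Hspa1b, Hsph1, Hspb1, Dnajb1, Hsp90aa1, Hspa8 and Hspa5) and the cold-inducible genes Rbm3 and Cirbp. They were chosen by name, with their levels in these libraries and their differences between the labelled genotypes already known, so those values are a description. Where the outcome of the test over all genes is given for them, it supports nothing about the set. All 10 were among the 14708 genes that passed the filter on low counts and were tested.

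Heat shock proteins are molecular chaperones that bind unfolded proteins and help them fold or be degraded. In warm or otherwise stressed cells the transcription factor HSF1 forms trimers, binds heat shock elements in promoters and switches on the inducible members, while members such as Hspa8 are transcribed at all times. Rbm3 and Cirbp encode small glycine-rich RNA-binding proteins that cells make in larger amounts when mildly cooled, so these genes are known to answer to temperature in the opposite direction.

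The study set 3 old mice lacking PKC-epsilon, the protein kinase C isoform made from the gene Prkce, beside 3 old wild-type (WT) mice, with 1 atrial RNA library per mouse. The mouse line label gives the WT line as C57BL/6J and the knockout line as JAX stock #004189. The labels give both lines an average age of 20.9 ± 0.43 months (kind of error not stated) and mice of both sexes. In 4 of the 6 libraries the library name gives the opposite genotype to the genotype field, so the fold changes of the 10 genes are given under both readings. The sample titles and the mouse line label go with the genotype field, whereas the column names of the count table are the library names. Libraries are called here by their library name, as labelled WT 1 to 3 and KO 1 to 3; by the genotype field, WT 1, KO 2 and KO 3 are wild-type and KO 1, WT 2 and WT 3 are knockout.

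Total counts ran from 11574206 to 24138824 per library, and mitochondrial transcripts took 17.4% to 19.5% of them. Prkce, the targeted gene, stood at 28.6 to 36.2 counts per 1000000 (CPM) in the libraries labelled WT 1, WT 3 and KO 3 and at 5.15 to 11.7 CPM in those labelled WT 2, KO 1 and KO 2. Its level therefore went against the library name in WT 2 and KO 3, and against the genotype field in KO 2 and WT 3. Markers of atrial muscle summed to 30940 to 38560 CPM, and those of ventricular muscle to 93 to 552 CPM. Myl2, the ventricular myosin light chain, was at 25.7 to 33.4 CPM in WT 1, KO 2 and KO 3 and at 174 to 357 CPM in the other 3 libraries, so it split the libraries by genotype field. Myl3, another ventricular marker, split them alike, at 54.4 to 77.2 CPM and 125 to 189 CPM. So did Irx4, though near the floor, at 0 to 0.0725 CPM and 0.482 to 0.926 CPM. The markers Irx5, Hey2 and Kcne1 did not. Of the 2 genes that passed an adjusted p of 0.05 by genotype field in edgeR, 1 was a ventricular marker. The part of ventricular muscle in the values below was not tested. In bulk tissue, fewer cells of a type and less RNA per cell cannot be told apart.

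Promoter sequences were found for 7 of the 10 genes in RefSeq (build GRCm38.p6); Hsp90aa1, Hspa8 and Rbm3 had no entry. The 250 bases before each start were searched on both strands for heat shock elements, written as GAANNTTC or TTCNNGAA. Such a pair of units was present in the window of Hspa1a, Hspa1b, Hsph1 and Hspb1, and in 14.5% of the 27025 genes with a promoter entry. A run of 3 alternating units was in none of the 7 genes and in 0.514% of all. A match is a description of the letters and shows no binding. The sequences below, 5′ to 3′ on the gene's strand, show where the matches lie, with the matched motif in capitals.

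Hspa1a, chr17:34972157-34972306, minus strand: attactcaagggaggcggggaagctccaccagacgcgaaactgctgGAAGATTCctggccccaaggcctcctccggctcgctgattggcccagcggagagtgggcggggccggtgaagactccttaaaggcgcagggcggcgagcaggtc
Hspa1b, chr17:34959239-34959388, minus strand: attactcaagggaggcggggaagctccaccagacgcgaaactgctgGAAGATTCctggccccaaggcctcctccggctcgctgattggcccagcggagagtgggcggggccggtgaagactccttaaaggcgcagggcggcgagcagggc
Hspb1, chr5:135887769-135887918, plus strand: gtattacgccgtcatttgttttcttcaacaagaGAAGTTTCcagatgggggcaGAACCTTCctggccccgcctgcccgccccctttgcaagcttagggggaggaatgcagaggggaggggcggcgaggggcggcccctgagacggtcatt
Hsph1, chr5:149636352-149636379, minus strand: ggtagaatctTTCTCGAAggctcgagaa

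The promoters of Hspa1a and Hspa1b differed at 3 of the 250 bases searched and at 1 of the 150 printed. Hspb1 held 2 separate pairs of units. In Hsph1 the match lies inside an annotated first exon of a longer transcript, so only a short stretch around it is printed. Dnajb1 had no pair of units in this window.

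The window of Hspa5 held an endoplasmic reticulum (ER) stress response element instead: CCAAT and CCACG separated by 9 bases, a motif found in 0.13% of genes with a promoter entry. Cirbp held the 8 letters TCCCCGCC, known as a mild-cold response element of this gene, which with its reverse complement was found in 5.37% of genes, Hspa1a and Hspa1b among them. Both stretches are printed because they hold the known response motifs of these genes. The Hspa5 match also lies inside an annotated first exon, and the Cirbp stretch ends where an exon begins.

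Hspa5, chr2:34772020-34772048, plus strand: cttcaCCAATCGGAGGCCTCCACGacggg
Cirbp, chr10:80167589-80167777, plus strand: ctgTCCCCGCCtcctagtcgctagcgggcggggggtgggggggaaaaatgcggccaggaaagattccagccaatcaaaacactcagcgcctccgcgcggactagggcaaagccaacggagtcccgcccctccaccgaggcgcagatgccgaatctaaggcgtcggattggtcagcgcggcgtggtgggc

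The inducible HSP70 genes had the lowest levels of the set and the widest range. Hspa1a (ENSMUSG00000091971, chr17:34969190-34972156, GRCm38) and Hspa1b (ENSMUSG00000090877, chr17:34956436-34959238) encode near-identical HSP70 proteins that are scarce in unstressed cells and strongly induced by heat. Hspa1a stood at 5.22, 5.89 and 20.6 CPM in the libraries labelled WT 1, 2 and 3 and at 2.73, 2.54 and 3.72 CPM in those labelled KO 1, 2 and 3. The library labelled WT 3 was 5.54 times the median of the other 5, and all 3 libraries labelled WT were above all 3 labelled KO. Hspa1b stood at 2.64, 3.2 and 17.2 CPM in WT 1 to 3 and at 2.27, 1.96 and 2.69 CPM in KO 1 to 3. Again WT 3 was far above the rest, at 6.53 times the median of the other 5, and the groups overlapped through WT 1. Within each same-numbered pair the library labelled KO was the lower, with a log2 ratio of -0.22, -0.71 and -2.68.

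The counts behind these values were small in 5 libraries, 35 to 87 reads for Hspa1a and 27 to 55 for Hspa1b, and were 470 and 393 reads in WT 3. The 95% Poisson interval of Hspa1a was 18.8 to 22.6 CPM in WT 3 and 4.59 to 7.44 CPM in the next highest library, WT 2, which covers counting error only. By library name the log2 fold change, KO over WT, was -1.83 (SE 0.521) for Hspa1a and -1.75 (SE 0.705) for Hspa1b. By genotype field it was 1.36 (SE 0.698) and 1.65 (SE 0.744). Without WT 3 these became -0.88 (SE 0.348) and -0.33 (SE 0.405) by library name, and 0.15 (SE 0.436) and 0.16 (SE 0.399) by genotype field, so the size of both differences depended on this 1 library.

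How reads were shared between the HSP70 copies is uncertain. The coding parts of the annotated transcripts were 99.4% identical, with an identical run of up to 638 bases, whereas the part after the coding sequence was 46.9% identical. Only 25% of the Hspa1a body is free of other genes, since Gm20481 lies over 2225 bases of it on the opposite strand and the libraries carry no strand; counted over exons alone, 81% of its exon bases are free of other genes' exons. Hspa1b has no overlapping gene and was also highest in WT 3. As the coding parts are near-identical, the values of Hspa1a and Hspa1b may not be independent. The part of Gm20481 in them was not tested. The sum of both genes was 7.86, 9.09 and 37.8 CPM in WT 1 to 3 and 5, 4.5 and 6.41 CPM in KO 1 to 3, with 33.6% to 45.5% of it from Hspa1b.

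**Figure D1:**
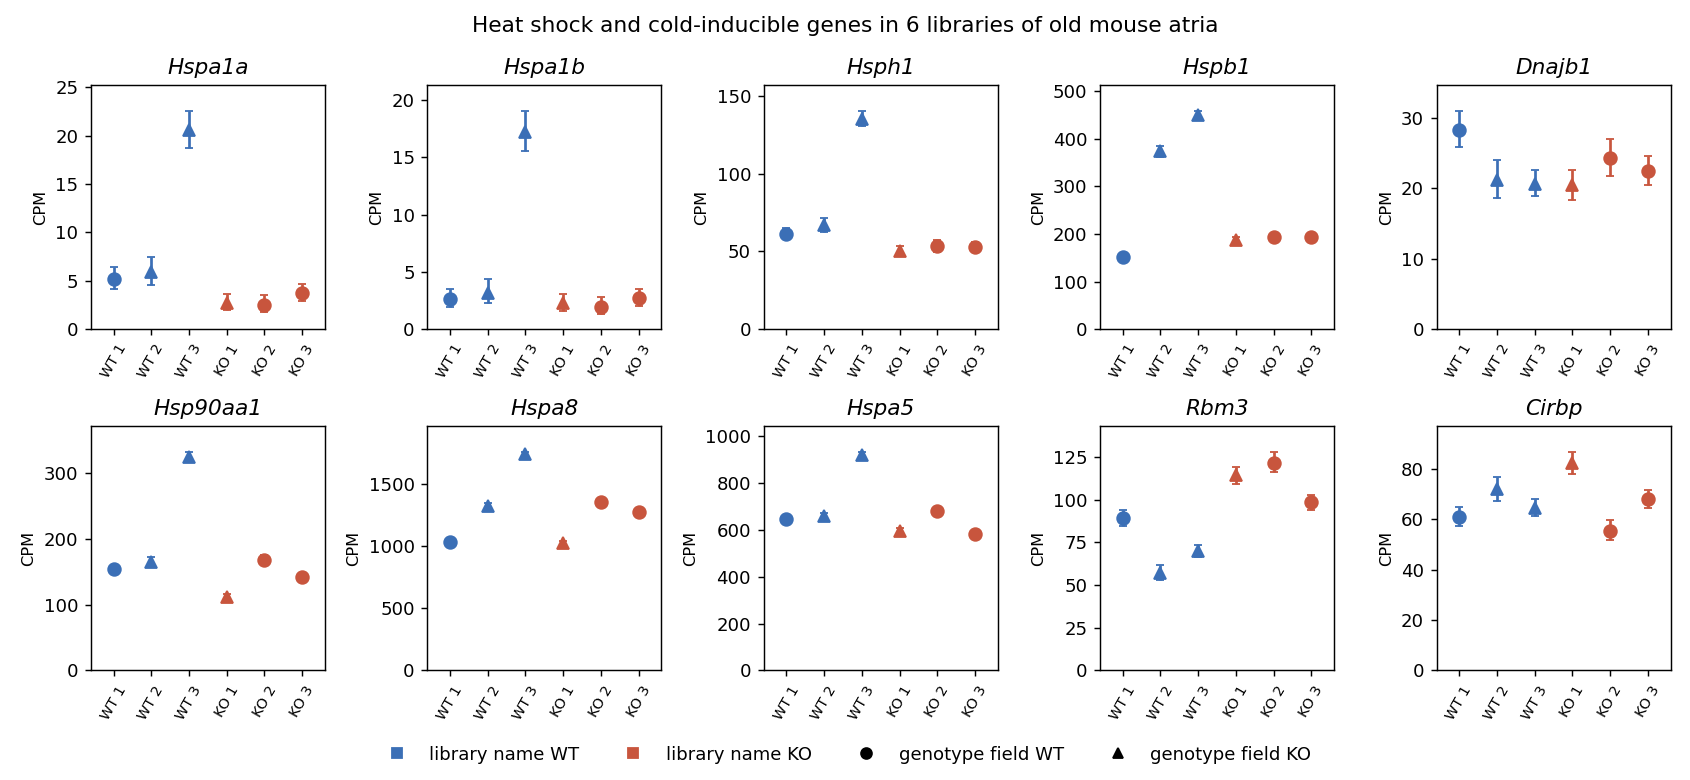
Level of each of the 10 genes in CPM (vertical axis, from 0) in the 6 libraries (horizontal axis, by library name), with 95% Poisson intervals as bars; colour gives the library-name genotype and shape the genotype field. The library labelled WT 3 is the highest for 7 genes, by a wide margin for Hspa1a (20.6 CPM) and Hspa1b (17.2 CPM), while Rbm3 is highest in the libraries labelled KO.

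Hsph1 (ENSMUSG00000029657, chr5:149614287-149636376) encodes HSP110, a nucleotide exchange factor that recharges HSP70. Its level was 61.5, 66.7 and 135 CPM in WT 1 to 3 and 50, 53.3 and 52.9 CPM in KO 1 to 3. The order was that of Hspa1a: WT 3 at 2.54 times the median of the others, then WT 2 and WT 1, with the KO-labelled libraries lowest and close together. The log2 fold change was -0.76 (SE 0.274) by library name and 0.59 (SE 0.328) by genotype field. Without WT 3 it was -0.30 (SE 0.167) and 0.06 (SE 0.178).

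Hspb1 (ENSMUSG00000004951, chr5:135887919-135889563) encodes HSP27, a small heat shock protein that holds unfolded proteins and binds actin in muscle. It stood at 152, 373 and 449 CPM in WT 1 to 3 and at 188, 194 and 194 CPM in KO 1 to 3. Here WT 2 and WT 3 were both high, at 1.92 and 2.31 times the median of the other 5, and WT 1 was the lowest of all. The library-name groups thus overlapped through WT 1, and the genotype-field groups through KO 1. The log2 fold change was -0.76 (SE 0.331) by library name and 0.90 (SE 0.281) by genotype field, and without WT 3 it was -0.45 (SE 0.312) and 0.64 (SE 0.268).

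Hsp90aa1 (ENSMUSG00000021270, chr12:110690605-110702728), the stress-inducible cytosolic HSP90, also peaked in 1 library. Its level was 154, 165 and 323 CPM in WT 1 to 3 and 111, 168 and 142 CPM in KO 1 to 3. The other libraries labelled WT lay within the range of those labelled KO. The log2 fold change by library name was -0.61 (SE 0.285) and, without WT 3, -0.18 (SE 0.209). By genotype field it was 0.37 (SE 0.341) and changed sign to -0.17 (SE 0.2) without that library.

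Dnajb1 (ENSMUSG00000005483, chr8:83608193-83612653) encodes HSP40, the co-chaperone that delivers clients to HSP70, and is itself known as strongly heat-inducible. It did not share the pattern of its partners. Its level was 28.3, 21.2 and 20.7 CPM in WT 1 to 3 and 20.4, 24.3 and 22.5 CPM in KO 1 to 3. The library labelled WT 3 ranked 5th of 6 for this gene, at 0.921 times the median of the others, and WT 1 was highest. By library name the log2 fold change was -0.06 (SE 0.181). By genotype field it was -0.27 (SE 0.153), and the 3 libraries read as wild-type were above the 3 read as knockout, by a margin of 22.5 over 21.2 CPM at the closest.

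Hspa8 and Hspa5 varied less over the libraries than the genes above other than Dnajb1. Hspa8 (ENSMUSG00000015656, chr9:40800984-40810087), the HSC70 of unstressed cells, stood at 1036, 1324 and 1738 CPM in WT 1 to 3 and at 1023, 1359 and 1271 CPM in KO 1 to 3. Hspa5 (ENSMUSG00000026864, chr2:34771970-34777547), known as BiP, is the HSP70 of the ER and a target of the unfolded protein response rather than of HSF1. Its level was 648, 658 and 918 CPM in WT 1 to 3 and 596, 681 and 582 CPM in KO 1 to 3. Both were highest in WT 3, at 1.37 and 1.42 times the median of the other 5. The log2 fold changes by library name were -0.17 (SE 0.202) for Hspa8 and -0.26 (SE 0.175) for Hspa5, and by genotype field 0.16 (SE 0.201) and 0.18 (SE 0.179). Without WT 3 they lay between -0.07 and 0.05 under both readings.

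**Figure D2:**
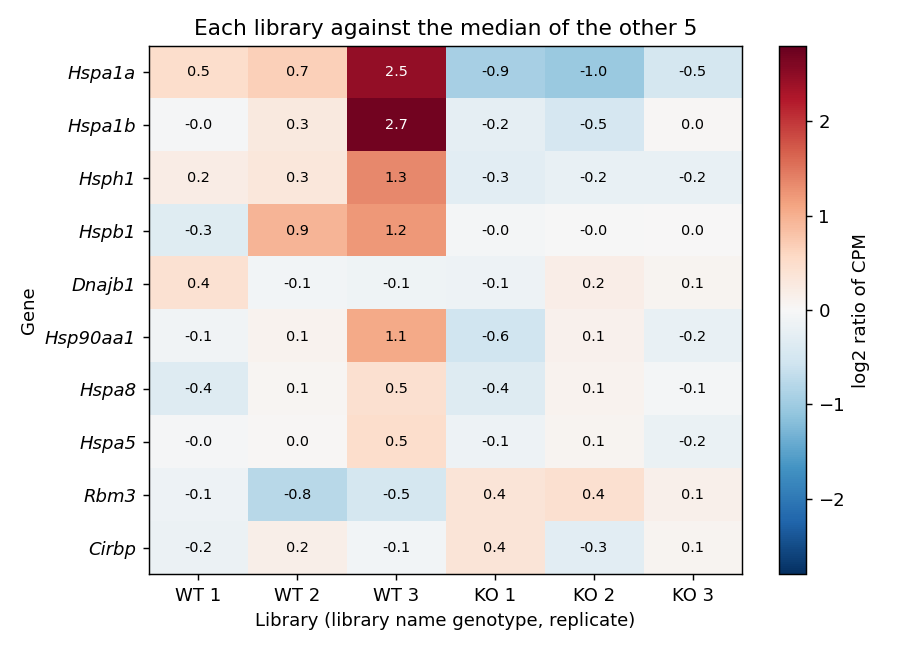
Log2 ratio of each library's CPM to the median of the other 5 libraries, for the 10 genes (vertical axis) and 6 libraries (horizontal axis, by library name); red is above and blue below. The library labelled WT 3 has the highest ratio for 7 of the 10 genes, with Dnajb1, Rbm3 and Cirbp as exceptions.

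The cold-inducible pair did not move together. Rbm3 (ENSMUSG00000031167, chrX:8138975-8145880) stood at 89.4, 57.1 and 69.7 CPM in WT 1 to 3 and at 114, 122 and 98.4 CPM in KO 1 to 3. All libraries labelled KO were above all labelled WT, and the lowest was WT 2. The log2 fold change by library name was 0.63 (SE 0.179), and 0.61 (SE 0.223) without WT 3, so this gene's difference did not rest on that library. By genotype field it was -0.36 (SE 0.24), with overlapping groups, and it moved with the library left out, to -0.17 without WT 2, -0.22 without KO 2, -0.27 without WT 3 and -0.70 without KO 1. The antisense gene Rbm3os shares 452 bases with Rbm3, and 93.5% of the Rbm3 body is free of other genes.

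Rbm3 is on the X chromosome and the mice were of both sexes. Y-linked genes summed to 1.08 and 1.09 CPM in WT 1 and WT 2 and to 78.9 to 146 CPM in the other 4 libraries. WT 3, with the highest Y-linked sum, had the second lowest Rbm3 level. With the Y-linked level as a covariate the log2 fold change of Rbm3 was 0.66 (SE 0.267) by library name and -0.43 (SE 0.208) by genotype field. The same covariate moved other genes more by library name: Hsph1 to -1.26 (SE 0.19), Hsp90aa1 to -1.06 (SE 0.247), Hspa5 to -0.51 (SE 0.213), Hspa8 to -0.43 (SE 0.247), Hspb1 to -1.14 (SE 0.353), Hspa1b to -2.62 (SE 0.35) and Hspa1a to -2.56 (SE 0.33). Dnajb1 changed sign, to 0.10 (SE 0.249). WT 1 and WT 2, the libraries with little Y-linked RNA, are both labelled WT by library name. With the covariate, the contrast by library name therefore rests largely on WT 3 against the libraries labelled KO. These libraries all held Y-linked RNA, at 78.9 to 146 CPM. The library-name genotype and the high heat shock levels of WT 3 cannot be told apart in this contrast. By genotype field none of the 10 moved by over 1.5 times with the covariate.

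Cirbp (ENSMUSG00000045193, chr10:80165985-80172786) stood at 61, 71.9 and 64.4 CPM in WT 1 to 3 and at 82.1, 55.4 and 68 CPM in KO 1 to 3. No library stood apart and the groups overlapped under both readings. The log2 fold change was 0.06 (SE 0.166) by library name and 0.24 (SE 0.143) by genotype field.

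The library names form 2 series, 1 pair whose names begin with Old (WT 1 and KO 1) and 4 that begin with a number. Only the Old pair has the same genotype under both readings, and in the numbered 4 the readings are exact mirror images. Within the Old pair, with 1 library a side and no test, the log2 ratio of KO over WT was -0.94 for Hspa1a, -0.30 for Hsph1, 0.30 for Hspb1, 0.35 for Rbm3 and 0.43 for Cirbp. Within the numbered 4, by library name, it was -1.84, -0.84, -1.08, 0.80 and -0.15 for the same genes. Of these 5, Hspa1a, Hsph1 and Rbm3 thus had the same direction in both series by library name, and Hspb1 and Cirbp did not. Among the other genes of the set, Hspa1b, Hsp90aa1, Hspa8 and Hspa5 had the same direction by library name, and Dnajb1 did not. By genotype field only Hspb1, Dnajb1 and Cirbp had the same direction in both series.

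Over the whole set, 8 of the 10 genes were lower and 2 higher in KO by library name, with a median log2 fold change of -0.43. Over all tested genes 54.5% were lower, with a median of -0.02. By genotype field 8 were higher and 2 lower, with a median of 0.31 against -0.01 for all tested genes. Both comparisons use the same 6 libraries and share the library labelled WT 3 in opposite groups. In edgeR's quasi-likelihood test over all genes, none of the 10 passed an adjusted p of 0.05 under either reading, an outcome from which nothing is read since these contrasts were known when the set was made. The share of all tested genes that passed was 0% by library name and 0.0136% by genotype field. Groups did not overlap for 3 of the 10 by library name (Hspa1a, Hsph1 and Rbm3), beside 5.95% of tested genes, and for 1 of the 10 by genotype field (Dnajb1), beside 12%. Of all tested genes, 219 had an unadjusted p under 0.05 by library name with edgeR, 223 with DESeq2 and 236 with limma-voom. By genotype field these counts were 837, 796 and 804.

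Leaving out the libraries whose Prkce level went against the label kept the direction of all 10 genes by library name and not by genotype field. Without WT 2 and KO 3, the log2 fold change by library name was -2.30 (SE 0.648) for Hspa1a, -0.93 (SE 0.353) for Hsph1, -0.66 (SE 0.584) for Hspb1 and 0.57 (SE 0.203) for Rbm3. Without KO 2 and WT 3, that by genotype field was -0.08 (SE 0.444), 0.02 (SE 0.201), 0.68 (SE 0.311) and -0.14 (SE 0.291) for the same genes, and Hspa1a and Hsp90aa1 changed sign. Each of these fits had 2 libraries a side, and none of the 10 passed in either. Both choices also differ in whether they keep WT 3, the library with the highest heat shock levels. Hspb1 passed in 2 other fits: by genotype field with the replicate number as a block (log2 fold change 0.82, SE 0.167; adjusted p = 0.0447 in edgeR), and by library name without WT 1 (-1.10, SE 0.147; adjusted p = 0.0369 in edgeR). Its adjusted p in the other fits ran from 0.117 to 1.

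**Figure D3:**
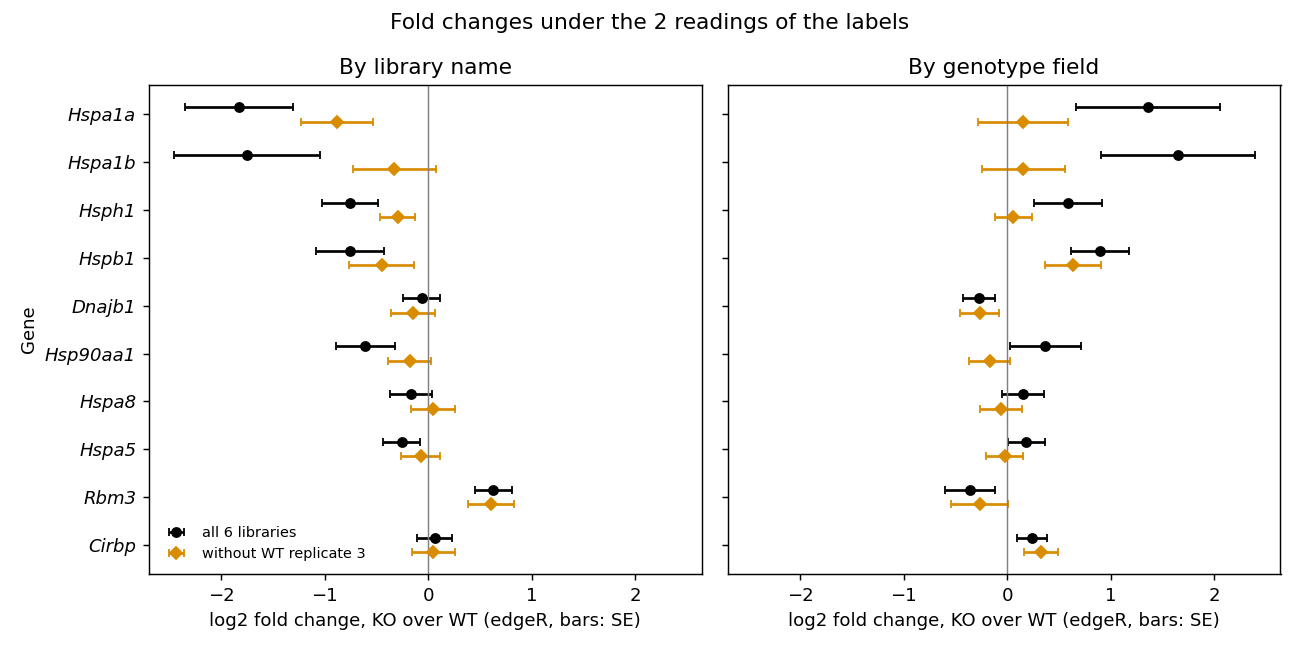
Log2 fold change, KO over WT (horizontal axis), of the 10 genes (vertical axis) by library name (left) and by genotype field (right), from edgeR with SE as bars; black uses all 6 libraries and orange leaves out the library labelled WT 3. Hspa1a moves from -1.83 to -0.88 by library name and from 1.36 to 0.15 by genotype field, while Rbm3 stays at 0.63 and 0.61 by library name.

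The library labelled WT 3 was the highest of the 6 for 7 of the 10 genes, against 11.6% of all tested genes. It exceeded the next highest library more than 1.5 times for 4 of them (Hspa1a, Hspa1b, Hsph1 and Hsp90aa1), against 1.04% of all tested genes. The set was put together with these levels known, so the shares are given side by side and not tested. Of the other libraries, WT 1 was highest for Dnajb1, KO 2 for Rbm3 and KO 1 for Cirbp.

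Per kilobase of annotated exon, the levels spanned a wide range. The median over the 6 libraries was 302 CPM per kb for Hspa8, 188 for Hspb1 and 154 for Hspa5. Hsp90aa1 followed at 40.6, Cirbp at 25.4, Rbm3 at 20, Hsph1 at 7.9 and Dnajb1 at 6.82 CPM per kb. Last came Hspa1a at 1.51 and Hspa1b at 0.951 CPM per kb, the first of these partly overlapped by Gm20481. Both values may be too low, since it is not known how reads from their near-identical sequence were counted. Of neighbours in this order, the ranges over libraries were separate only between Hspa5 (138 to 217) and Hsp90aa1 (28.3 to 82.3). All other neighbours overlapped.

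Other genes of the same pathways were read from lists that leave out the 10. The lists share genes, so the same gene can be counted in several of them. No gene of these pathway lists passed the test under either reading, so counts by sign and medians follow. Of 21 HSF1 targets and co-chaperones, 18 were lower in KO by library name (median -0.18), and 15 were higher by genotype field (median 0.12). Dnaja1, an HSP40 that pairs with HSC70, stood at 66.8, 73.5 and 124 CPM in WT 1 to 3 and at 51.3, 67.6 and 64.3 CPM in KO 1 to 3. It thus had the same high library as Hsph1 and Hsp90aa1, with a log2 fold change of -0.53 (SE 0.227) by library name and 0.32 (SE 0.27) by genotype field. Serpinh1, the collagen chaperone HSP47, was at 193, 454 and 493 CPM in WT 1 to 3 and 240, 336 and 264 CPM in KO 1 to 3, an order like that of Hspb1 in its high pair.

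Among the chaperone lists the HSP90 machinery had the most uniform sign. All 12 tested members were lower in KO by library name (median -0.22), and 11 were higher by genotype field (median 0.21). In 9 of the 12 the library labelled WT 3 was highest. Hsp90ab1, Stip1, Ahsa1, Fkbp4, Chordc1 and Cacybp of this list were also counted among the HSF1 targets above, and Hsp90b1 among the ER genes below. Chordc1, an HSP90 co-chaperone, stood at 47, 35.7 and 55.4 CPM in WT 1 to 3 and at 33.1, 31 and 36.7 CPM in KO 1 to 3. Unc45b, the myosin chaperone that works with HSP90 in striated muscle, was at 170 CPM in WT 3 and at 74.9 to 116 CPM elsewhere.

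Chaperones of the ER moved with Hspa5 in sign. Of 24 ER chaperone and unfolded protein response genes, 22 were lower in KO by library name (median -0.23) and 16 higher by genotype field (median 0.10). WT 3 was highest for 14 of them. Hsp90b1, Hyou1, Dnajb9, Dnajb11 and Dnajc3 of this list are also in other chaperone lists. Creld2, an ER stress-induced protein, stood at 18.5, 37.4 and 54.8 CPM in WT 1 to 3 and at 22, 25.7 and 20.9 CPM in KO 1 to 3. Sdf2l1, another ER stress-induced gene, was at 23.5 CPM in WT 3 and at 7.74 to 14.7 CPM in the other 5.

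Other chaperone families were less uniform in sign. Among 9 tested HSP70 relatives outside the set, 4 were higher and 5 lower in KO by library name, 2 higher and 7 lower by genotype field, and 7 were highest in WT 1, the highest library for 27.4% of all tested genes. The 15 HSP40 genes were 12 lower by library name (median -0.12), with WT 3 highest for 8, and 8 higher by genotype field. Of 6 small heat shock proteins besides Hspb1, 5 were higher by library name and 4 by genotype field. Cryab, the alpha-B-crystallin of muscle, shared the low WT 1 of Hspb1, with 1625 CPM there and 1844 to 2442 CPM in the other 5. The 10 mitochondrial and cytosolic chaperonins split 5 to 5 by library name and 2 higher to 8 lower by genotype field.

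Regulators of the heat shock response came next. Hsf1, which encodes the factor itself, was at 30.9, 41.9 and 40.1 CPM in WT 1 to 3 and at 36, 30.8 and 30.6 CPM in KO 1 to 3. Its log2 fold change was -0.21 (SE 0.166) by library name and 0.35 (SE 0.133; adjusted p = 0.841, edgeR) by genotype field. Of the 11 regulators tested, 8 were lower by library name and 7 higher by genotype field; Stub1, the ubiquitin ligase of the HSP70 system, is listed at 0 in all libraries. Of 7 cold shock domain and cold-linked genes, 4 were higher by library name and 5 by genotype field. Ybx1, a cold shock domain protein, ran from 700 to 907 CPM, lowest in WT 1.

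**Figure D4:**
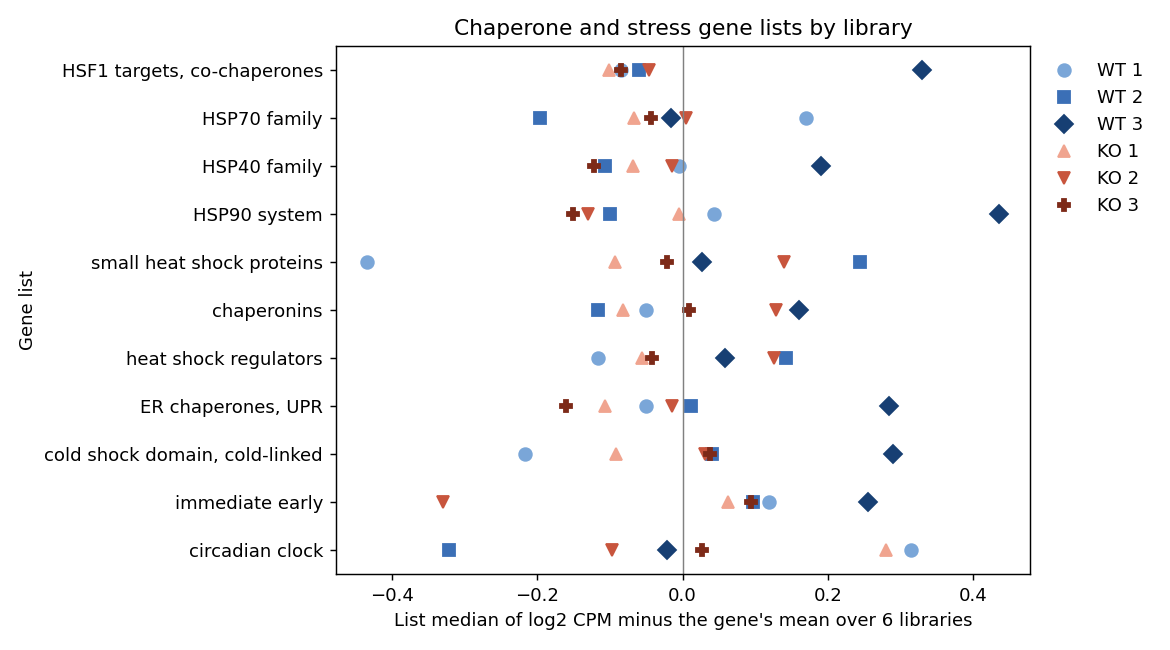
Median over each gene list (vertical axis) of log2 CPM minus the gene's mean over the 6 libraries (horizontal axis), with 1 symbol per library by library name; the 10 described genes are left out of every list. For HSF1 targets the library labelled WT 3 lies at 0.33 and the other 5 between -0.10 and -0.05, while for the HSP70 relatives and small heat shock proteins WT 3 lies within the others.

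Immediate early and clock genes were read beside these. Immediate early genes, which respond within minutes to stimuli, summed to 4043 CPM in WT 3 and to 2850 to 3945 CPM in the other 5 libraries. Of these 25 genes, 22 were lower in KO by library name (median -0.21) and 16 higher by genotype field, and WT 3 was highest for 10. Nr4a3, an immediate early nuclear receptor, was at 139 CPM in WT 3 and at 16.8 to 67.2 CPM elsewhere. Other members of this list went another way: Egr1 was lowest in WT 3, at 185 CPM there and at 210 to 384 CPM elsewhere. Clock genes separated the libraries in another way: WT 1 was highest for 9 of 15 tested and WT 3 for 4, beside 27.4% and 11.6% of all tested genes. Their median log2 deviation from the gene mean was highest in the Old pair, at 0.315 in WT 1 and 0.28 in KO 1. Not all clock genes followed this, and Arntl, Nfil3 and Npas2 were among those that did not. Arntl was lowest in the Old pair, at 1.44 CPM in WT 1 and 5.68 CPM in KO 1, and at 17.5 to 31.5 CPM elsewhere. Nfil3 was at 22.7 and 29.3 CPM in WT 2 and WT 3 and at 6.02 to 9.59 CPM elsewhere. Npas2 was at 10.7 and 10.5 CPM in WT 2 and WT 3 and at 1.8 to 6.02 CPM elsewhere, so Nfil3 and Npas2 shared the high pair of Hspb1. Markers of mesothelium summed to 219 CPM in WT 3, the highest of the 6, to 198 CPM in WT 2 and to 127 CPM in the lowest library. This was the only cell type list with its highest sum in WT 3. WT 3 was lowest for Schwann cell and neuron markers (49.2 CPM) and for B and T cell markers (8.15 CPM). It lay between the extremes for all other cell type lists. The part of these genes and cells in the level of the heat shock genes was not tested.

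Genes with the most similar course over the 6 libraries were found by Pearson's r of log2 CPM, among 10535 genes with a mean of at least 5 CPM. Nearest to the mean standardised course of the 7 cytosolic heat shock genes were Dnaja1 (r = 0.997), Sash1 (r = 0.99), Pla1a (r = 0.969), Ccdc171 (r = 0.963), Tent5b (r = 0.961) and Gem (r = 0.959). Nearest to Rbm3, among 10540 genes, were Twistnb (r = 0.98), Camk1g (r = 0.975), D330025C20Rik (r = 0.974), Degs1 (r = 0.973), Mmadhc (r = 0.967) and D430019H16Rik (r = 0.965). With 6 libraries of which 1 stands apart, and so many genes searched, such values describe these libraries only. Sash1, for example, ran from 52.3 to 72.4 CPM, a much narrower range than that of Dnaja1.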

How the data were processed

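Raw read counts per Ensembl gene were deposited by the authors for 6 libraries. FastQC 0.11.5, MultiQC 1.7, HISAT2 2.1.0, featureCounts 1.5.0-p3 and GRCm38 are named per the submitters' processing notes; which annotation release, feature type and strand option were used is not given in the sources used here. Per the labels' protocols, RNA from flash-frozen atria was isolated on RNeasy columns, and 1 µg of total RNA went into TruSeq v2 libraries, which keep no strand.

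Symbols, exon lengths and positions came from GENCODE M21. CPM values are TMM-scaled. Differences were tested with edgeR 4.0.16 (R 4.3.3; quasi-likelihood F test, filterByExpr, two-sided, Benjamini-Hochberg adjustment over all genes tested, threshold 0.05), checked on simulated counts. Each SE was derived from the F statistic. The p-values measure the spread between mice, 3 per group. DESeq2 1.42.0 and limma-voom (limma 3.58.1), other normalisation and filter settings, covariates, each library left out, and, added after seeing Prkce, the removal of libraries whose Prkce level went against a label were alternatives. Deviations of same-numbered libraries correlated at r = 0.157, 0.159 and 0.121 by library name, and at 0.257, 0.219 and 0.121 by genotype field. Libraries of unlike number had r of -0.168 to 0.00975 by library name and -0.283 to 0.131 by genotype field. The value of 0.131, for KO 3 with WT 2, is above that of the same-numbered KO 3 and WT 3. The number 1 pair is also the Old series, so these values do not establish that the mice were paired. The printed fold changes are from the fit without the block, and a fit with the replicate block is an alternative.

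The 10 genes, the lists and the tests were chosen with earlier results of these data known. Beside them and Prkce, the rule named, per list, the 2 genes with the largest fold change under each reading with a mean of at least 5 CPM, and the 6 genes most alike to 2 profiles; the text gives a selection of these. Myl2, the Y-linked, immediate early and marker sums, Ybx1 and Cryab stand for their lists. Arntl and Egr1 were added as members of their lists that went another way. Intervals cover counting error only, since reads carry no molecular identifiers.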

Additional observations from a re-analysis of the deposited data

How the results depend on the processing

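By library name no gene passed the threshold; the count was 1 without a low-count filter, 3 in the numbered libraries alone, 0 to 4 with 1 library left out (4 without WT 3) and 6 without both WT 2 and KO 3. Of the 10 genes, 0 to 1 passed with 1 library left out: Hspb1, without WT 1 (log2 fold change -1.10, adjusted p = 0.0369 in edgeR; otherwise 0.117 to 1). By genotype field 2 genes passed; the count was 16 with DESeq2, 1 with limma-voom, 25 without a filter, 7 with the library series as covariate and 0 to 2 with 1 library left out. With the replicate block, which treats same-numbered libraries as pairs, 51 genes passed, and 1 of the 10, Hspb1 (log2 fold change 0.82, adjusted p = 0.0447 in edgeR). The block changed no other call among the 10. The cause of these differences was not tested. Leaving out WT 3 left 5 of the 10 higher and 5 lower by genotype field. Counts of 27 to 87 reads limit Hspa1a and Hspa1b outside WT 3.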
